A study of Homo sapiens with 4 samples.

Results

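The Siglec, LILR, CLEC and CD300 receptor genes were examined in NB4 cells with and without JMJD3 overexpression. A gene was taken where its name was SIGLEC followed by a number, LILRA or LILRB followed by a digit, CLEC followed by a number and a letter, or CD300 followed by letters, or where it was CD33, CD22, LAIR1 or PILRA. This gave 63 of the 60662 genes in the deposited table, each with a single gene identifier. NB4 cells are human APL cells of the M3 type and express the PML-RARα fusion protein. The cells were transduced with a lentiviral vector that also expresses GFP, either as the control (vector, 2 libraries) or carrying JMJD3, the H3K27 demethylase encoded by KDM6B (JMJD3, 2 libraries), and GFP+ cells were sorted before RNA-seq. The comparison asks which genes of NB4 cells differ in mRNA level after JMJD3 overexpression.

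Most of these receptors are cell surface proteins of myeloid cells, and many come as pairs of closely related members with opposite signals. Inhibitory members carry ITIM motifs in their tails and recruit the phosphatases encoded by PTPN6 and PTPN11, whereas activating members lack them and signal through adaptors such as those encoded by TYROBP and FCER1G and the kinase SYK. Siglecs bind sialic acid on glycans, LILRB members bind HLA class I molecules, CD300 members bind lipids of membranes, and the CLEC symbol covers proteins with a C-type lectin domain, some of them secreted. CD33 and CLEC12A are well known as surface antigens of AML blasts.

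Vector replicates 1 and 2 held estimated counts of 39078443 and 40768225 in total, and JMJD3 replicates 1 and 2 held 35176388 and 34704909. Levels are given as CPM, which scales counts to a common library size after TMM normalisation, or as FPKM, which also divides by gene length, where genes are compared with each other. KDM6B was at 15.8 and 13.7 CPM in the vector libraries and at 37.9 and 44.1 CPM in the JMJD3 libraries. Both JMJD3 libraries were above both vector libraries, as their labels say, and the log2 fold change was 1.48 with a standard error (SE) of 0.13 (adjusted p = 0.00114 by edgeR's quasi-likelihood test).

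Of the 63 receptor genes, 31 passed edgeR's filter on low counts and were tested. With p adjusted over the 15246 tested genes, 12 receptors were higher and 1 was lower in JMJD3 cells at the 0.05 level. Among all genes tested 21.6% were higher and 19.1% lower by the same rule, against 38.7% and 3.23% of the tested receptors. With a change of at least 2-fold as well, 5 receptors were called higher, SIGLEC6, CD300A, SIGLEC12, CLEC2B and CD300LB, beside 7.55% of all genes tested. With all libraries kept and no replicate block, none was called lower by edgeR, DESeq2 or limma (0 receptors, beside 2.82% of all genes by edgeR). With the block 1 was called lower, CLEC10A (-1.62). The block pairs libraries by replicate number, and the labels do not say that libraries of the same number belong together. In the reported edgeR fit, at an unadjusted p under 0.05 with the 2-fold limit, 1 was lower, also CLEC10A. The median log2 fold change was 0.531 over the 31 tested receptors and 0.041 over all tested genes, and on FPKM values with limma the median of the receptors was 0.083 with a pseudocount of 1 and 0.205 with one of 0.1, where that of all tested genes was 0.014 and 0.023. The libraries of the groups did not overlap in 27 of the 31, and in 74.4% of all genes tested. The 12 receptors higher past the adjusted p became 5 by limma on FPKM with either pseudocount and 6 with no filter, each with 1 lower.

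The filter bears on these counts, because a gene that reached its level in both libraries of only 1 group was taken partly for its high values there. This favours a difference but does not force one, since the groups overlapped for LILRB1. SIGLEC6, CD22, CLEC2B, CLEC18A and CLEC18C reached the filter's level of 0.269 CPM in both libraries of JMJD3 cells alone (5 genes), and CLEC10A and LILRB1 in those of vector cells alone (2 genes). Among the other 24, 10 passed the same level as higher and 1 as lower, and 3 were called higher at 2-fold. By family, 6 of 9 tested Siglecs, 3 of 4 CD300 genes, 1 of the pair LAIR1 and PILRA and 2 of 12 CLEC genes were higher, 1 of 2 LILRA genes was lower, and of the 2 tested LILRB genes 0 passed in either direction, beside 21.6% higher and 19.1% lower among all genes tested. In the same order, those higher numbered 2, 3, 0 and 0 by limma on FPKM with either pseudocount. They numbered 3, 3, 0 and 0 with no filter and 4, 3, 1 and 0 by DESeq2's Wald test. The 6 higher Siglecs, and so the 12 higher receptors, included the row named SIGLEC5. That row is a long noncoding RNA gene in GENCODE release 44. Its reads were divided with those of SIGLEC14, which was also among the 6. RNA came from bulk cells, so that fewer cells expressing a receptor and less RNA per cell cannot be told apart. The labels do not say that the libraries came from separate cultures, and the p-values measure only the spread between these libraries. Where a library is left out, its group holds 1 library and the spread comes from the other group alone, so that a call gained or lost there shows how far it rests on that library and is no evidence for or against a difference.

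**Figure D1:**
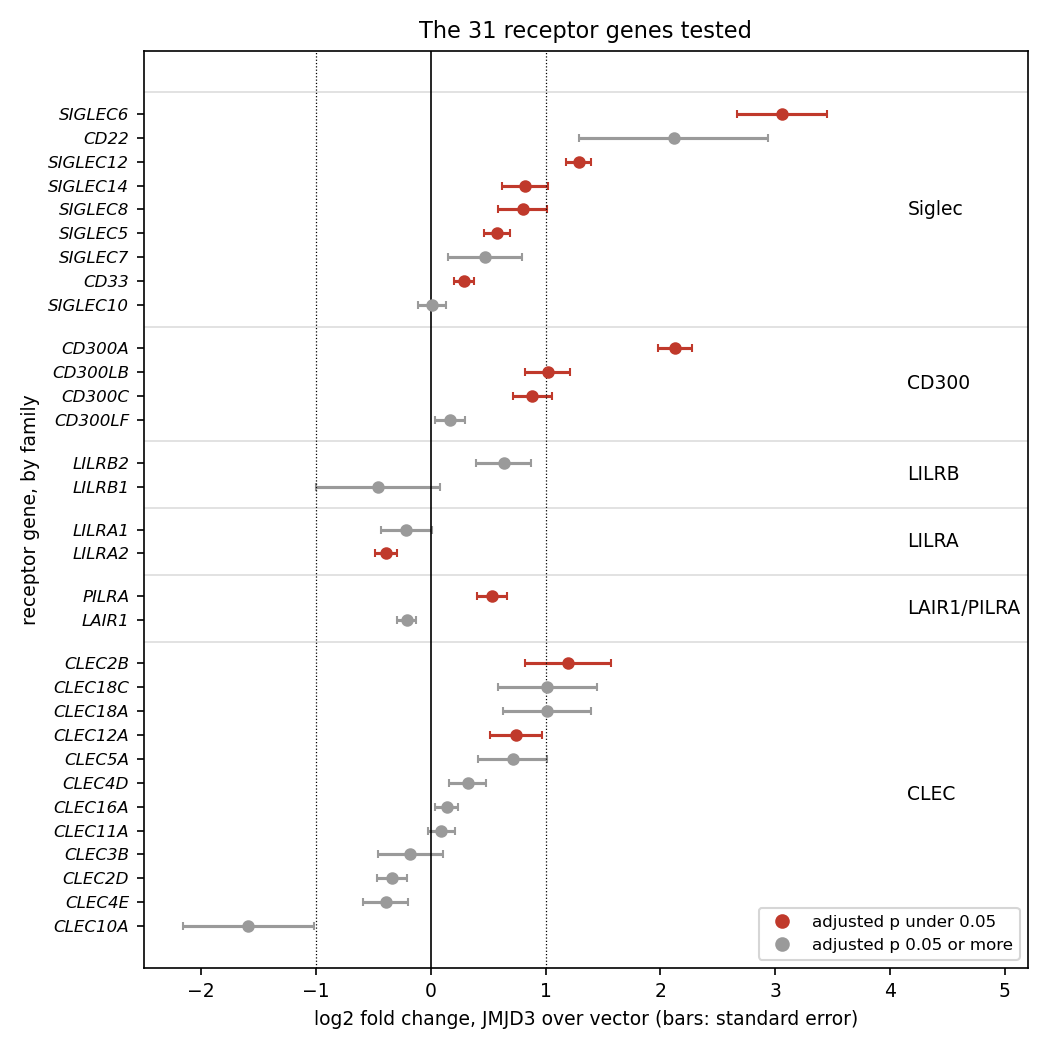
Log2 fold change of JMJD3 over vector (x axis) for each of the 31 tested receptor genes, grouped by family on the y axis, with the standard error as bars, dotted lines at a 2-fold change, and red for an adjusted p under 0.05. SIGLEC6 (3.06) and CD300A (2.13) lie farthest to the right among the red points, and LILRA2 (-0.39) is the red point left of 0.

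The CD300 family included the receptor with the lowest adjusted p. CD300A, an inhibitory receptor with ITIM motifs that binds phosphatidylserine and phosphatidylethanolamine, was at 2.99 and 2.62 CPM in the vector libraries and at 13.1 and 11.4 CPM in the JMJD3 libraries. Both JMJD3 libraries were several times above both vector libraries, and the gap was far wider than that between libraries of a group. The log2 fold change was 2.13 (SE 0.15, adjusted p = 0.000664 by edgeR). CD300LB, an activating receptor that signals through the TYROBP adaptor, was at 2.24 and 2.52 CPM in vector cells and at 4.13 and 5.51 CPM in JMJD3 cells. Its JMJD3 libraries were higher and less alike than its vector libraries, with a log2 fold change of 1.02 (SE 0.20, adjusted p = 0.00853 by edgeR). The 2-fold limit was missed with all libraries by DESeq2's size factors (0.98), its Wald test (0.98) and limma on FPKM (0.66 and 0.98), and also without vector replicate 1 (0.90) and without JMJD3 replicate 2 (0.80).

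CD300C, an activating member that pairs with the Fc receptor gamma chain, was at 2.24 and 2.83 CPM in vector cells and at 4.75 and 4.62 CPM in JMJD3 cells. The groups did not overlap, and the gene rose by a log2 fold change of 0.88 (SE 0.17, adjusted p = 0.00883 by edgeR). CD300LF, an inhibitory receptor for ceramide and other lipids, was the most abundant family member per length in vector cells, at 4.91 ± 0.572 FPKM (SD, n = 2) against 2.03 ± 0.112 FPKM for CD300A. Its level of 6.53 and 7.57 CPM in vector cells and 7.88 and 7.97 CPM in JMJD3 cells gave a log2 fold change of 0.17 that did not pass the test. The value was 0.03 without vector replicate 1 and 0.28 without vector replicate 2. In JMJD3 cells CD300A reached 8.50 ± 0.928 FPKM and CD300LF 5.66 ± 0.183 FPKM (SD, n = 2 each). CD300E, CD300LD and CD300LG had at most 5 reads in a library and were not tested.

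**Figure D2:**
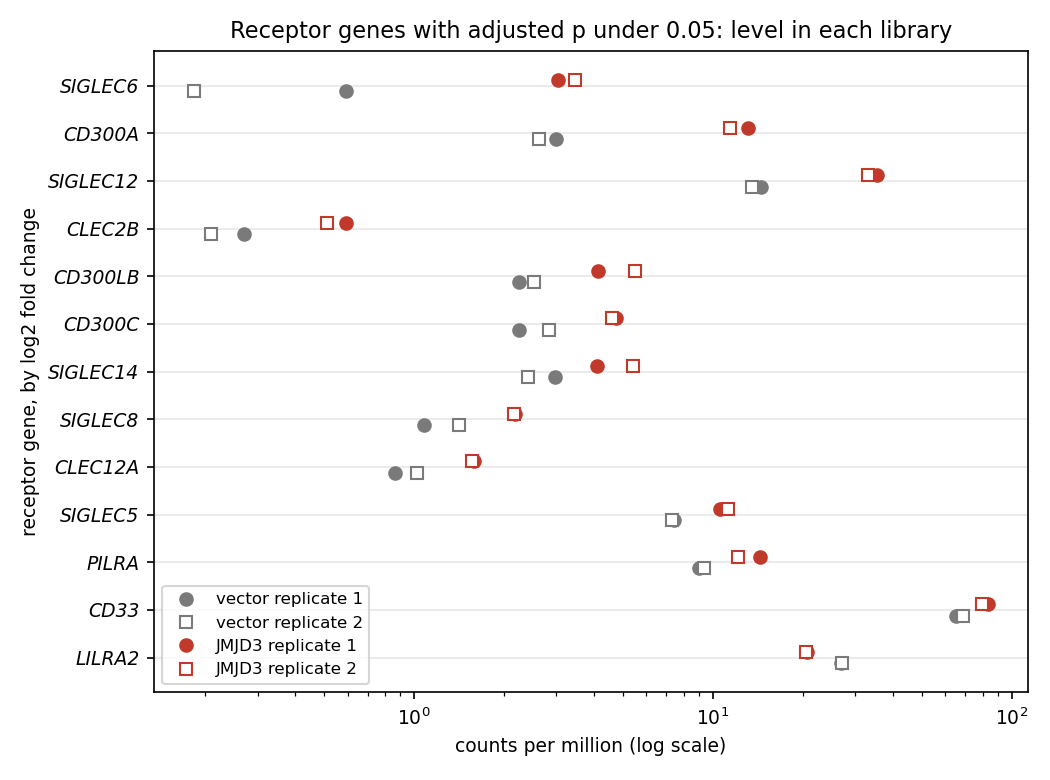
CPM on a log axis for the 13 receptor genes with an adjusted p under 0.05 (y axis), with each vector library in grey and each JMJD3 library in red. CD33 is the farthest right and SIGLEC6 spans the widest range, from 0.183 CPM in vector replicate 2 to 3.46 CPM in JMJD3 replicate 2.

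SIGLEC6 encodes an inhibitory Siglec known from placental trophoblast, mast cells and B cells. It had 19 and 7 reads in the vector libraries and 113 and 154 reads in the JMJD3 libraries, or 0.594 and 0.183 CPM against 3.02 and 3.46 CPM. The gene was near the filter's level in vector cells, where its libraries differed most, and well above it in both JMJD3 libraries. Only in JMJD3 cells did both libraries reach the filter's level, so that the filter favoured a difference, and its values are given as a description. The log2 fold change of 3.06 (SE 0.39) depended on the vector libraries, being 4.08 without vector replicate 1 and 2.44 without vector replicate 2, and it was 1.19 on FPKM values with a pseudocount of 1. The opposite strand holds exons of a long noncoding RNA gene over 9.93% of its exon bases, and since counting is not stated to use the strand, reads of the 2 genes cannot be told apart there.

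SIGLEC12 encodes a Siglec that in humans has lost an arginine needed for binding sialic acid but has kept its ITIM. It was at 14.5 and 13.5 CPM in vector cells and at 35.3 and 33.0 CPM in JMJD3 cells. The libraries of each group lay close together and the groups far apart, and the log2 fold change was 1.29 (SE 0.11, adjusted p = 0.00104 by edgeR). Per length it went from 7.59 ± 0.206 FPKM in vector cells to 18.3 ± 0.895 FPKM in JMJD3 cells (SD, n = 2 each). SIGLEC8, the inhibitory Siglec of eosinophils and mast cells, was at 1.08 and 1.41 CPM in vector cells and at 2.19 and 2.16 CPM in JMJD3 cells. The groups did not overlap, and the log2 fold change was 0.80 (SE 0.22, adjusted p = 0.0267 by edgeR). It did not pass without vector replicate 1, JMJD3 replicate 1 or JMJD3 replicate 2, at 0.58, 0.79 and 0.81, nor in the Wald test of DESeq2, by limma on FPKM with either pseudocount, or without the filter.

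CD33, the myeloid antigen that is the target of gemtuzumab ozogamicin, was the most abundant Siglec per length, at 64.1 ± 3.37 FPKM in vector cells and 66.8 ± 2.39 FPKM in JMJD3 cells (SD, n = 2 each). On counts it was at 65.1 and 68.7 CPM in vector cells and at 83.5 and 79.7 CPM in JMJD3 cells. The groups overlapped on neither pair of CPM values, but the rise was small, with a log2 fold change of 0.29 (SE 0.09, adjusted p = 0.0380 by edgeR). On FPKM values it was 0.06 and did not pass, nor did it pass in DESeq2 by its size factors or its Wald test, without the filter, with the replicate block, or without JMJD3 replicate 1 (0.25) or JMJD3 replicate 2 (0.32).

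SIGLEC10, which binds CD24, was at 12.9 and 15.5 CPM in vector cells and at 14.1 and 14.6 CPM in JMJD3 cells, where the groups overlapped. SIGLEC7, an inhibitory Siglec of NK cells and monocytes, was at 0.647 and 0.445 CPM against 0.810 and 0.702 CPM, with a log2 fold change of 0.47 that did not pass. The SIGLEC7 value was 0.72 without vector replicate 1 and 0.22 without vector replicate 2. By limma on FPKM it was 0.03 with a pseudocount of 1 and 0.06 with one of 0.1. Antisense RNA genes cover 27.5% of the exon bases of SIGLEC7 and up to 16.2% of those of SIGLEC10, which leaves both levels uncertain. CD22, the inhibitory Siglec of B cells, had 7 and 0 reads in vector cells and 18 and 20 reads in JMJD3 cells, and its log2 fold change of 2.11 (SE 0.82) did not pass either (adjusted p = 0.0805 by edgeR). The value was 2.07 without JMJD3 replicate 1 and 2.15 without JMJD3 replicate 2, 2.19 with the replicate block, and 1.12 without vector replicate 2, with the adjusted p under 0.05 in the first 3 of these. Without vector replicate 1 it was under 0.05 as well, but the vector group is then at 0 reads and the value of 7.14 gives only a direction, so that the size of a CD22 difference is not fixed by these reads.

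SIGLEC5 and SIGLEC14 form a pair in which the first is inhibitory and the second activating through TYROBP, and their extracellular parts are nearly identical. The table row named SIGLEC5 is, in GENCODE release 44, a long noncoding RNA gene, and the coding SIGLEC5 gene stands in the table as AC018755.18, which the naming rule did not take. The SIGLEC5 row shares 39.6% of its exon bases with the coding gene and 12.5% with SIGLEC14. The 3 rows held fractions of reads, but their sums were whole, at 650 and 732 reads in vector cells and 1139 and 1388 reads in JMJD3 cells, so that reads had been divided among them.

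The SIGLEC5 row was at 7.39 and 7.28 CPM in vector cells and at 10.6 and 11.3 CPM in JMJD3 cells. SIGLEC14 was at 2.97 and 2.41 CPM against 4.10 and 5.40 CPM, and AC018755.18 at 9.69 and 10.4 CPM against 15.8 and 14.4 CPM. All 3 rows were higher in both JMJD3 libraries than in either vector library. Their log2 fold changes were 0.58, 0.82 and 0.59 (SE 0.12, 0.20 and 0.11), with adjusted p of 0.00997, 0.0188 and 0.00897 by edgeR, and the sum of the rows, formed after the data were seen, rose by 0.62 (SE 0.10, adjusted p = 0.00471 by edgeR). The split between the 3 rows is uncertain, and the sum is the firmer value. SIGLEC5 did not pass without JMJD3 replicate 2 (0.53), nor SIGLEC14 without vector replicate 2 (0.68) or JMJD3 replicate 2 (0.61), neither passed on FPKM values, and SIGLEC14 did not pass with no filter.

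The likeness of the pair reaches upstream of the genes. Shown are the 250 bases before the RefSeq start of coding SIGLEC5 (chr19:51630402-51630651) and of SIGLEC14 (chr19:51646826-51647075), both on the minus strand of GRCh38.p14 and written 5′ to 3′, with capitals for the run next to the start that is identical in both. That run is 113 bases long, and 195 of the 250 positions are the same.
SIGLEC5: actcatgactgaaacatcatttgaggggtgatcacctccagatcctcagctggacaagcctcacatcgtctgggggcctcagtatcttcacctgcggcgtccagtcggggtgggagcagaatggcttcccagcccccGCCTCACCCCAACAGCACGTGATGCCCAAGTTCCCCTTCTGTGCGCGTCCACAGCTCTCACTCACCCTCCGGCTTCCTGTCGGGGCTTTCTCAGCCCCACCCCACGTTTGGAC
SIGLEC14: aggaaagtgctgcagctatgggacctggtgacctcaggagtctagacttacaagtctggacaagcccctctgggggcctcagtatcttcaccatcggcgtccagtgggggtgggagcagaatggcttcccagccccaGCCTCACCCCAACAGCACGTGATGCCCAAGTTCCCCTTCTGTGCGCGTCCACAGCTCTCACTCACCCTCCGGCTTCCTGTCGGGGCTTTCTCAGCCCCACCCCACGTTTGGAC

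Of the LILR genes 4 of 10 were tested. LILRA2, an activating receptor that pairs with the Fc receptor gamma chain and senses cleaved immunoglobulin, was the receptor past the test in the lower direction. It was at 26.9 and 27.0 CPM in vector cells and at 20.7 and 20.5 CPM in JMJD3 cells. The libraries of each group were almost alike, and LILRA2 fell by 0.39 on the log2 scale (SE 0.10, adjusted p = 0.0198 by edgeR). It did not pass without JMJD3 replicate 1 (-0.40) or JMJD3 replicate 2 (-0.38), nor with the replicate block (-0.39), and its SE was 0.23 without either JMJD3 library. A long noncoding RNA gene on the same strand shares 15.8% of its exon bases, and its reads were partly divided.

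LILRA1, also an activating member, was at 2.54 and 1.89 CPM in vector cells and at 2.05 and 1.76 CPM in JMJD3 cells, where the groups overlapped. LILRB2, an inhibitory receptor for HLA class I, was at 0.890 and 0.917 CPM against 1.54 and 1.27 CPM, with a log2 fold change of 0.63 that did not pass (adjusted p = 0.0719 by edgeR). LILRB1, which also binds HLA class I, was at 0.405 and 0.341 CPM against 0.135 and 0.405 CPM. The groups overlapped for LILRB1 and not for LILRB2.

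LAIR1, an inhibitory receptor for collagen, lies in the same gene cluster and was at 61.6 and 62.2 CPM in vector cells and at 53.3 and 53.6 CPM in JMJD3 cells. The libraries did not overlap, but the log2 fold change of -0.21 (SE 0.09) did not pass (adjusted p = 0.0918 by edgeR). It passed without vector replicate 1 (-0.26) and without vector replicate 2 (-0.20). PILRA, an inhibitory receptor for sialylated O-glycans, was at 9.01 and 9.35 CPM in vector cells and at 14.4 and 12.2 CPM in JMJD3 cells. It rose by a log2 fold change of 0.53 (SE 0.13, adjusted p = 0.0182 by edgeR), whereas PILRB, its activating partner, fell by 0.38 on the log2 scale. The reads of PILRB were partly divided, which leaves its level less certain. PILRA did not pass without JMJD3 replicate 1 (0.40), on either FPKM scale or with no filter, and it shares 4.42% of its exon bases with PILRB.

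Of the CLEC genes 12 of 30 were tested, and their levels spanned a wide range. CLEC11A, which encodes a secreted growth factor for hematopoietic progenitors, was the most abundant of all 63 genes per length, at 324 ± 60.2 FPKM in vector cells and 339 ± 10.5 FPKM in JMJD3 cells (SD, n = 2 each). On counts it was at 323 and 410 CPM in vector cells and at 400 and 380 CPM in JMJD3 cells, where the groups overlapped. Its log2 fold change was 0.09, and -0.11 without vector replicate 1 and 0.27 without vector replicate 2, where it passed.

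CLEC2B, which encodes a ligand of an NK cell receptor, was at 0.270 and 0.210 CPM in vector cells and at 0.594 and 0.513 CPM in JMJD3 cells. That is 9 and 8 reads against 22 and 23 reads, a change of 2.29-fold (SE 0.37 on the log2 scale). For CLEC2B too, only the JMJD3 libraries both reached the filter's level, so that the filter favoured a difference, and this too is a description. The call was lost without vector replicate 2, JMJD3 replicate 1 or JMJD3 replicate 2, where the log2 fold change was 1.03, 1.09 and 1.30, and by DESeq2's Wald test, by limma on FPKM with either pseudocount and without the filter. CLEC12A, an inhibitory receptor that recognises uric acid crystals, was at 0.863 and 1.02 CPM in vector cells and at 1.59 and 1.57 CPM in JMJD3 cells. It was higher in both JMJD3 libraries, by a log2 fold change of 0.74 (SE 0.22, adjusted p = 0.0378 by edgeR), but did not pass without vector replicate 1 (0.59), JMJD3 replicate 1 (0.73) or JMJD3 replicate 2 (0.75), nor with the tools that lost CLEC2B.

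The 10 other tested CLEC genes did not pass. CLEC4E, the activating receptor Mincle, was at 3.91 and 5.45 CPM in vector cells and at 3.48 and 3.65 CPM in JMJD3 cells, with a log2 fold change of -0.39, and CLEC4D, its partner, had one of 0.32. CLEC2D, a ligand of the NK cell receptor encoded by KLRB1, was at -0.34. CLEC16A, an endosomal protein that acts in mitophagy, was at 0.14 and CLEC3B, the secreted protein tetranectin, at -0.18. CLEC4E passed without vector replicate 1 (-0.65) and was -0.13 without vector replicate 2, and CLEC2D passed without vector replicate 1 (-0.41) and was -0.30 without vector replicate 2. CLEC3B shares 61.3% of its exon bases with EXOSC7. CLEC2D shares 12.1% of its exon bases with the pseudogene NPM1P7 on the same strand, and its reads were partly divided.

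CLEC10A, a lectin for galactose-type sugars on macrophages, was at 0.378 and 0.367 CPM in vector cells and at 0.189 and 0.0540 CPM in JMJD3 cells, with a log2 fold change of -1.59 (SE 0.57, adjusted p = 0.0649 by edgeR). It passed without JMJD3 replicate 1 (-2.71) and with the replicate block (-1.62), whereas it was -0.97 without JMJD3 replicate 2 and -0.15 and -0.60 by limma on FPKM with pseudocounts of 1 and 0.1. CLEC5A, which signals through TYROBP, had a log2 fold change of 0.71 (adjusted p = 0.0981 by edgeR), and 12.0% of its exon bases lie opposite those of MGAM. CLEC18A and CLEC18C, near-identical copies, each had one of 1.01, and neither passed, although CLEC18C did without vector replicate 2 (1.57) and was at 0.58 without vector replicate 1. Summed with the third copy, CLEC18B, a choice made after the data were seen, they had 16 and 22 reads in vector cells and 41 and 47 reads in JMJD3 cells, which differ by 0.98 on the log2 scale (SE 0.28). This is given as a description, since CLEC18A and CLEC18C had passed the filter through the JMJD3 libraries alone.

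Grouped by signal, a grouping made from textbook knowledge after the data were seen, 7 of the 14 tested receptors with an ITIM were higher and 0 lower, with a median log2 fold change of 0.582, beside 21.6% and 19.1% of all tested genes, and 3 of the 14 had passed the filter through 1 group only. Neither the SIGLEC5 row nor AC018755.18, the coding SIGLEC5 gene, was among the 14. The number higher was 4 by DESeq2's Wald test, 3 by limma on FPKM with either pseudocount, 3 without the filter and 4 to 7 when a library was left out. The median was 0.288 by limma with a pseudocount of 1 and 0.542 with one of 0.1. At an unadjusted p under 0.05 edgeR and DESeq2's Wald test each gave 1 of them lower, LAIR1, and limma 0, and at an adjusted p under 0.05 each of the tools gave 0. Of the 8 tested receptors that pair with an activating adaptor, 3 were higher, CD300LB, CD300C and SIGLEC14, and 1 was lower, LILRA2, with a median of 0.516. That median was -0.031 by limma with a pseudocount of 1 and 0.003 with one of 0.1, each with 2 higher and 1 lower. Whether the 2 kinds of receptor differ was not tested.

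Many of these genes lie side by side in the genome, and positions in GENCODE release 44 on GRCh37 were used to place them. In the CD300 cluster on chromosome 17, which spans 246.6 kb, the log2 fold changes were 2.13 for CD300A at its start, 1.02 for CD300LB at 54.8 kb, 0.88 for CD300C at 74.7 kb and 0.17 for CD300LF at 227.9 kb. The values thus went down with distance from CD300A over these 4 genes, which is a description with no test. No other gene within the span was tested.

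In the Siglec cluster on chromosome 19, which spans 521.9 kb, 6 of 8 tested receptors were higher, with a median of 0.688, among them SIGLEC6, which had passed the filter through the JMJD3 libraries alone. The 6 also included the SIGLEC5 row, the noncoding gene whose reads were divided with SIGLEC14 and AC018755.18. Of all genes tested 21.6% were higher and 19.1% lower. Apart from AC018755.18, which is the coding SIGLEC5 gene, 10 other genes in the span were tested, of which 3 were higher, with a median of 0.439, and 1 of these 3, CTD-3187F8.14, had passed the filter in the same way. Among those 10 was the pseudogene SIGLEC17P, at 4.24 and 4.01 CPM in vector cells and 13.3 and 12.5 CPM in JMJD3 cells, with a log2 fold change of 1.65 (adjusted p = 0.000863 by edgeR). The zinc finger gene ZNF175, which lies between SIGLEC6 and the SIGLEC5 and SIGLEC14 pair, rose by 0.86. SIGLEC10, ETFB and NKG7 in the middle of the span were at 0.01, -0.09 and -0.12 and did not pass. In the LILR cluster on the same chromosome, spanning 461.7 kb, 0 of 5 tested receptors were higher and 1 was lower by edgeR, beside the same shares of all genes, while 2 of 4 other tested genes were higher, LENG9 at 0.98 and LENG8-AS1 at 2.06. SIGLEC17P, the LENG genes and the other neighbours were chosen after their values were seen.

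Promoters were searched for motifs of myeloid transcription factors in the 250 bases before the RefSeq start, which were matched by symbol and at hand for 23 of the 31 tested receptors and 9 of the 13 that passed. CD300C, CD300LF, CLEC10A, CLEC18C, CLEC2B, CLEC4D and PILRA were not matched, and the SIGLEC5 row was left out because the promoter under its symbol is that of the coding gene. The PU.1 type motif AGGAAGT, on either strand, was found in 6 of the 23, CD300LB, SIGLEC12, LILRA2, SIGLEC7, CLEC4E and CLEC5A, and in 7.10% of all 27305 promoters. The C/EBP type motif TTGCNNAA was found in CLEC4E and in 9.13% of all promoters. A match is a description of these bases and not a binding site. The 3 promoters of passing receptors with AGGAAGT are shown for SIGLEC12 (chr19:51501801-51502050, minus strand), CD300LB (chr17:74531476-74531725, minus strand) and LILRA2 (chr19:54573540-54573789, plus strand) in GRCh38.p14, 5′ to 3′, with the motif or its reverse complement in capitals. The first and second of these genes were higher and the third was lower in JMJD3 cells.
SIGLEC12: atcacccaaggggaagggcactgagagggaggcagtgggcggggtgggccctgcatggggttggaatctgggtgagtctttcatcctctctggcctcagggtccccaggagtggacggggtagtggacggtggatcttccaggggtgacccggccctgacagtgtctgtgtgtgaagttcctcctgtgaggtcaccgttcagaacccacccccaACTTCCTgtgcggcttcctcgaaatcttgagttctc
CD300LB: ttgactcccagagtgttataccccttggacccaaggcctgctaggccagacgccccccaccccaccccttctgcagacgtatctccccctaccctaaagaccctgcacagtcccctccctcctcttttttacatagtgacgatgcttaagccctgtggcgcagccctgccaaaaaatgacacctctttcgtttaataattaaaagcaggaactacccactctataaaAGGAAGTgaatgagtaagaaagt
LILRA2: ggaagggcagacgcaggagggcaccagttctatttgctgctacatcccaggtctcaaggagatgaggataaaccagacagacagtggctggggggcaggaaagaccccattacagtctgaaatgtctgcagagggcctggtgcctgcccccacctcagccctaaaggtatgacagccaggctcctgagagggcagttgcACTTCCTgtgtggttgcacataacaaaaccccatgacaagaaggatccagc

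The genes through which these receptors signal moved in both directions. Of 19 adaptor and kinase genes 17 were tested, and 3 were higher and 5 lower, with a median log2 fold change of 0.006. Among all genes tested 21.6% were higher and 19.1% lower, and leaving out a library gave 1 to 4 higher and 2 to 8 lower in the list. HCST, which encodes the adaptor DAP10, was at 4.96 and 7.21 CPM in vector cells and at 13.7 and 13.1 CPM in JMJD3 cells, and rose by 1.14 on the log2 scale (SE 0.18, adjusted p = 0.00493 by edgeR), and LCP2 and SYK rose by 0.41 and 0.25. CSK, the kinase that restrains SRC family kinases, was at 184 and 203 CPM against 102 and 101 CPM, and fell by 0.93 on the log2 scale (SE 0.08, adjusted p = 0.00123 by edgeR). FYN fell by 0.98 and FCER1G by 0.67 on the log2 scale, and GRB2, the most abundant per length, was at -0.16 and passed only without vector replicate 1 (-0.20). TYROBP, the adaptor of CD300LB and SIGLEC14, was at 0.01.

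The SYK rise, the smallest of these, was lost in DESeq2 by its size factors and its Wald test, by limma, without the filter, with the replicate block and without JMJD3 replicate 1 (0.27) or JMJD3 replicate 2 (0.24). LCP2 did not pass without JMJD3 replicate 1 (0.40) or JMJD3 replicate 2 (0.42) or with no filter, FCER1G without JMJD3 replicate 2 (-0.62), and FYN without JMJD3 replicate 1 (-0.73), on FPKM values or with no filter. Among the 4 phosphatases, INPP5D, which encodes SHIP, rose by a log2 fold change of 0.44 and its relative INPPL1 fell by 0.42 on the log2 scale. PTPN6, the phosphatase recruited by most ITIMs, was at 152 and 171 CPM in vector cells and 162 and 163 CPM in JMJD3 cells, where the groups overlapped. INPP5D did not pass without JMJD3 replicate 2 (0.42), nor INPPL1 without JMJD3 replicate 1 (-0.39) or JMJD3 replicate 2 (-0.44).

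Genes that make, attach or remove sialic acid, the ligand of Siglecs, also moved both ways, with 7 of 20 tested genes higher and 3 lower of 31 in the list (median log2 fold change 0.096), beside 21.6% and 19.1% of all genes tested. Leaving out a library gave 3 to 8 higher and 1 to 4 lower. ST8SIA4, a polysialyltransferase, was at 13.2 and 12.2 CPM in vector cells and at 31.2 and 32.2 CPM in JMJD3 cells, and rose by 1.32 on the log2 scale (SE 0.10, adjusted p = 0.000973 by edgeR). ST6GALNAC4 rose by 0.87 and ST6GAL1, which makes the α2,6-linked sialic acid bound by CD22, by 0.81. ST6GALNAC2 was at 65.2 and 103 CPM in vector cells and at 30.9 and 27.9 CPM in JMJD3 cells, and fell by 1.52 on the log2 scale (SE 0.21, adjusted p = 0.00309 by edgeR). Its vector libraries were far apart, but both were above the JMJD3 libraries. NEU1, a sialidase, and NANS, a synthase, fell by 0.55 and 0.45 on the log2 scale. ST3GAL4, the most abundant of the list per length, was at -0.25 and passed only without vector replicate 1 (-0.37), with -0.16 without vector replicate 2. NEU1 and NANS did not pass without JMJD3 replicate 1 (-0.50 and -0.48) or JMJD3 replicate 2 (-0.61 and -0.42), nor NANS without the filter (-0.45).

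Of 31 other paired and lectin receptors outside the naming rule, 16 were tested, with 6 higher and 1 lower and a median log2 fold change of 0.418, beside 21.6% higher and 19.1% lower among all genes tested. Leaving out a library gave 5 to 7 higher and 0 to 2 lower. CD69, a C-type lectin of activated leukocytes, was at 0.162 and 0.210 CPM in vector cells and at 1.08 and 0.972 CPM in JMJD3 cells, which differ by 2.44 on the log2 scale (SE 0.34). CD69 had passed the filter through the JMJD3 libraries alone, so that the filter favoured a difference. PECAM1, an inhibitory receptor with ITIM motifs, was at 18.3 and 18.1 CPM against 37.1 and 37.1 CPM, and rose by 1.03, and SIRPG by 1.10. PILRB was at 88.3 and 92.0 CPM against 70.7 and 68.0 CPM, and its fall was lost without JMJD3 replicate 1 (-0.41) or JMJD3 replicate 2 (-0.35). ASGR2, a subunit of the asialoglycoprotein receptor, was at -0.33 and passed only without vector replicate 1 (-0.51), with -0.18 without vector replicate 2.

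Several of these receptors are known from other blood cell types, and markers of those cells were read beside them. The counts in these lists stand beside 21.6% higher and 19.1% lower among all genes tested. Of 5 basophil and mast cell markers 4 were tested and all 4 were higher, with a summed level of 33.9 and 33.1 CPM in vector cells and 341 and 332 CPM in JMJD3 cells. HDC, the histidine decarboxylase that makes histamine and the most abundant of them, rose from 29.7 and 29.2 CPM to 328 and 319 CPM, and TPSB2, TPSAB1 and MS4A2 rose by log2 fold changes of 2.66, 2.05 and 1.30. CPA3 was at 0.243 and 0.236 CPM in vector cells and at 0 reads in both JMJD3 libraries. The part of these markers in the results on the receptors was not tested.

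Of 6 monocyte markers 4 were tested and 2 were higher, CSF1R by a log2 fold change of 1.56 and CX3CR1 by 1.21, and the summed level went from 7.80 and 6.42 CPM to 17.3 and 16.7 CPM. CSF1R was the most abundant, FCGR3A had 0 reads in all 4 libraries, and CD14 was at 0.297 and 0.210 CPM against 0.351 and 0.216 CPM. Of 7 promyelocyte markers 6 were tested, and 4 were lower and 1 higher, with a sum of 16742 and 17573 CPM in vector cells and 10617 and 10558 CPM in JMJD3 cells, most of it MPO. MPO and CTSG fell by 0.57 and 3.91 on the log2 scale, and CD68 rose by 0.60. The part of these markers in the result was not tested.

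Of the 5 B cell markers 3 were tested and CD79A was higher, by 0.83, MS4A1 had 0 reads, and the sum was 25.9 and 30.8 CPM in vector cells and 36.6 and 32.8 CPM in JMJD3 cells, with CD79B the most abundant. Of the 7 T and NK cell markers 3 were tested, and CD2 was higher by 1.38 and NCAM1 fell by 0.92 on the log2 scale, and the sum, mostly NKG7, was 97.7 and 116 CPM in vector cells and 103 and 101 CPM in JMJD3 cells. Of the 5 plasmacytoid dendritic cell markers only IL3RA was tested, which did not pass, and SPIB was at 5.58 and 5 reads in vector cells and at 1 and 2 reads in JMJD3 cells. Their sum, mostly IL3RA, was 2.78 and 2.72 CPM against 2.75 and 2.30 CPM, with JCHAIN at 0. Of the 5 megakaryocyte and platelet markers 2 were tested and ITGA2B was higher by 1.43, with PF4 and GP9 at 0 reads and sums of 2.54 and 1.91 CPM against 3.43 and 3.51 CPM, to which GP1BA and ITGA2B gave the most. All 7 erythroid markers had 0 reads in all 4 libraries. The part of these B cell, T and NK cell and platelet genes in the result was not tested.

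The 32 receptors that were not tested had at most 8 reads in any library, and 14 of them had 0 reads in all 4. A count of 0 allows up to 3 reads, between 0.0671 and 0.0925 CPM in a library, for counting error only. Among the 18 with a read, LILRB3 had 4 and 7 reads in vector cells and 6 and 8 in JMJD3 cells, and it shares 44.5% of its exon bases with LILRA6. SIGLEC9 had 2 reads in JMJD3 replicate 1, CLEC7A, which encodes Dectin-1, had 5 and 3 against 3 and 1, and SIGLEC1 2 and 5 against 4 and 1. A difference in these 32 genes was not tested.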

How the data were processed

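The authors deposited a table of estimated counts and FPKM per gene and library. Its columns of mean FPKM, logFC, p-value and FDR, which hold the authors' own comparison, were not used. The submitters' processing notes name CASAVA, TopHat2, RSEM and edgeR, whereas the methods of the paper name STAR, HTSeq-count and DESeq2. The notes and the methods also name different genome builds, and which applies to the table is not known.

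The deposited counts behave as counts multiplied by 1 factor per library, from 0.829 in JMJD3 replicate 2 to 1.14 in vector replicate 1. Dividing by it gave whole numbers, to within 0.01, for 90.6 to 90.9% of nonzero values, and these are the reads printed. The fit used the deposited counts, rounded.

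Genes passed filterByExpr, which asks for 0.269 CPM in 2 libraries, and 15246 of 60662 did. TMM scaling and the quasi-likelihood test of edgeR 4.0.16 in R 4.3.3 compared JMJD3 with vector, with Benjamini-Hochberg adjustment over all genes tested. Every adjusted p in the text is from this fit unless another tool is named. A gene past an adjusted p of 0.05 is said to rise or fall, and one that also changed 2-fold is said to be called. The standard error is the absolute log2 fold change divided by the square root of the F statistic. SD is over the 2 libraries of a group.

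Alternatives were DESeq2 1.42.0 size factors and Wald test, upper quartile scaling, limma 3.58.1 on log2 FPKM with pseudocounts of 1 and 0.1, other filters, a replicate block, and leaving out each library in turn. Receptors were named where they passed or had a mean FPKM of at least 1 in a group, and the 8 other tested ones were named to account for every tested gene. In each companion list the genes with the 3 largest rises and falls past the test and the 2 most abundant per length were named, and others were chosen after their values were seen. The members and lists were chosen with earlier results of these data known. The procedure was tested on simulated data. Overlaps and positions came from GENCODE 44 on GRCh37 and promoters from RefSeq on GRCh38.p14.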

Additional observations from a re-analysis of the deposited data

How the results depend on the processing

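Against 5 receptors called higher, the DESeq2 Wald test and limma on FPKM with either pseudocount each gave 3. A filter of at least 10 counts in every library also gave 3, and the 1.5-fold limit gave 9. The calls over all genes fell in these settings too, from 1151 of 15246 genes higher in the reported fit. They numbered 807 by the Wald test, 293 and 941 by limma with pseudocounts of 1 and 0.1, and 873 of 13969 with the filter of 10 counts. Against 0 called lower, the replicate block gave 1 and leaving out a library 0 to 1. Past the adjusted p, 12 higher became 5 with limma on either FPKM scale, 6 with no filter and 7 to 12 without a library, and 1 lower became 0 to 4 without a library. With the replicate block 12 were higher and 1 lower past the adjusted p, but CD22 stood in place of CD33 and CLEC10A in place of LILRA2. Pairing the replicates crosswise, chosen after seeing the data, gave 6 called higher and 1 called lower, with 13 and 2 past the adjusted p. The KDM6B rise was 1.36 to 1.58 without a library and was kept throughout. Over the 31 receptors, 363 of 431 alternative values kept the sign and the test outcome, passing or not, of the reported fit. Their size could still differ, as for SIGLEC6 at 1.19 by limma on log2(FPKM + 1) against 3.06. For the 18 receptors that did not pass in the reported fit, a kept outcome means not passing again. A pass could be lost only among the values of the 13 that passed, and not among all 431. A pass was lost in 44 values and gained in 14, and the sign was reversed in 10. Reversed values were -0.11 for CLEC11A (-0.11 to 0.27 without a library), -0.0741 and -0.0902 for CLEC4D, 0.0826, 0.13 and 0.12 for LILRB1 (-1.44 to 0.12), and -0.0232, -0.0232, -0.15 and -0.01 for SIGLEC10 (-0.15 to 0.15). Among companion genes they were 0.0738 and 0.0741 for GRB2 and -0.0239, -0.0239 and -0.11 for PTPN6 (-0.11 to 0.10). None of these genes passed in the reported fit. The cause was not tested.

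With 2 libraries per group, small differences can be missed and the p-values carry only the spread of these libraries. The library name of vector replicate 1 carries lane 20 and those of the others lane 17. Reads of near-identical genes were divided, and mRNA levels say nothing of receptor protein on the surface.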

Other observations

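SIGLEC17P was at 4.24 and 4.01 CPM in vector cells and at 13.3 and 12.5 CPM in JMJD3 cells. SIGLEC22P was at 2.83 and 2.10 CPM against 2.27 and 3.54 CPM. CLECL1 was at 5.75 and 3.20 CPM against 6.18 and 7.05 CPM. HDC was at 29.7 and 29.2 CPM against 328 and 319 CPM.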
